A study of Mus musculus with 8 samples.

Results

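The 80 genes described here encode subunits of the mitochondrial respiratory chain and of the ATP synthase, grouped by complex. A gene was a member if its name began with Ndufa, Ndufb, Ndufc, Ndufs or Ndufv (complex I), was Sdha, Sdhb, Sdhc or Sdhd (complex II), began with Uqcr or was Cyc1 (complex III), began with Cox4 to Cox8 (complex IV) or began with Atp5 (complex V). Of 97 names that met this rule, 5 pseudogenes and 8 complex I assembly factors were left out by name, and 4 genes fell under the minimum of 50 counts summed over the libraries. The 80 members, of 27594 genes in the table, were 37 of complex I, 4 of complex II, 9 of complex III, 13 of complex IV and 17 of complex V. Just inside the minimum were Cox6b2 with 78 counts and Cox7a1 with 114, and just outside it were Cox8b with 16, Cox6a2 with 15, Cox4i2 with 9 and Ndufa4l2 with 2. The rule used names and summed counts, and no difference between groups. Some names stand for proteins that are no fixed part of their complex. Ndufa4 is now counted as a complex IV subunit, Cox7a2l is a factor that joins complexes into supercomplexes, Ndufab1 is also the mitochondrial acyl carrier protein, and Atp5s and Atp5sl are not subunits of the synthase.

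Regulatory T (Treg) cells were sorted from spleen and peripheral lymph node tissue of C57BL/6 mice 6 to 8 weeks old, as CD4+YFP+ cells that were CD44 low (resting, rTreg) or CD44 high (activated, aTreg), among other surface criteria. WT mice carried Foxp3-YFP-Cre, and Foxp1-deficient mice carried Foxp1 fl/fl with the same Foxp3-YFP-Cre, so both genotypes expressed YFP and Cre from the Foxp3 locus and the deletion was limited to cells that had expressed Foxp3. RNA sequencing gave 8 libraries, with 2 libraries of each subset in each genotype. The labels do not say how many mice or sorts a replicate stands for. In the main fit p-values measure the spread between these libraries that is left once the difference between replicate numbers is taken out. In bulk libraries, fewer cells of a type and less RNA per cell cannot be told apart.

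Complex I takes electrons from NADH, complex II takes them from succinate within the tricarboxylic acid cycle, complex III passes them from ubiquinol to cytochrome c, and complex IV passes them to oxygen. Complexes I, III and IV pump protons across the inner membrane, and complex V, the ATP synthase, uses the proton gradient to make ATP. Complex II is encoded by nuclear genes alone, while the other complexes also hold subunits made in the mitochondrion. Treg cells are known for using oxidative phosphorylation, and resting lymphocytes for a low biosynthetic activity.

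Library totals ran from 6373170 to 15268623 counts, and 3 counts, taken as the floor, stood for 0.196 to 0.471 CPM, the count scaled to the library total. This floor covers counting error only. Foxp1 itself was at 353 and 384 CPM (WT) and 342 and 338 (Foxp1-deficient) in rTreg libraries, and at 234 and 230.3 (WT) and 126 and 102 (Foxp1-deficient) in aTreg libraries. Its log2 fold change between genotypes was −0.12 in rTreg cells (edgeR quasi-likelihood test, adjusted p = 0.46) and −1.03 in aTreg cells (adjusted p = 0.00194). Counts were made over the whole gene, with exons outside a deleted part included, in both subsets. The small difference in rTreg cells does not check the labels, and its cause was not tested. The 7 Treg markers, among them Foxp3, summed to 2830.0 to 4389 CPM in every library. The 6 aTreg markers, among them Icos and Klrg1, summed to 74.6 to 105 CPM in rTreg and 721 to 1151 CPM in aTreg libraries. Counts of Y-linked genes were 2143 to 4356 in the libraries numbered 1 and 0 in those numbered 2, and Xist had at most 3 counts in the first and 15098 to 21822 in the second, so the 2 replicates of each group came from mice of different sex. B-cell markers summed to 7.92 to 21.2 CPM, CD8 or NK markers to 8.27 to 16.7 and red-cell markers to 0.867 to 4.30.

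The members together took 0.557% and 0.533% of the counts in WT rTreg and 0.616% and 0.631% in Foxp1-deficient rTreg libraries. In aTreg libraries they took 0.559% and 0.538% (WT) and 0.6001% and 0.572% (Foxp1-deficient). Both Foxp1-deficient rTreg libraries stood above the other 6. For each complex, the CPM of its members, scaled by the trimmed mean of M values (TMM), were added in each library.

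Complex I transcripts summed to 1471 and 1429 CPM in WT rTreg, 1677 and 1752 in Foxp1-deficient rTreg, 1475 and 1395 in WT aTreg, then 1577 and 1561 in Foxp1-deficient aTreg libraries. Complex IV summed to 883 and 860.2 CPM, 1014 and 1105, 839 and 816, and 921 and 917 in the same order of groups. Complex V, the largest sum in CPM, was at 2151 and 2159 CPM, 2505 and 2560.2, 2116 and 2054, and 2276 and 2257. In these 3 complexes both Foxp1-deficient libraries lay above both WT libraries in rTreg and in aTreg cells, and the Foxp1-deficient rTreg pair was the highest of the 4 pairs. Complex III had the same order with narrower gaps, at 612 and 582, 647 and 681, 588 and 556, and 611 and 618 CPM. Complex II stood apart, at 413 and 445, 414 and 457, 422 and 446, and 445 and 458 CPM, and its genotypes overlapped in rTreg cells and in aTreg cells.

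Between the group means of these sums, the Foxp1-deficient rTreg level was above the WT rTreg level by 18.3% in complex I, 1.45% in complex II, 11.2% in complex III, 21.6% in complex IV and 17.5% in complex V. In aTreg cells the difference was 9.29%, 4.09%, 7.42%, 11.1% and 8.70% in the same order. The pair of libraries numbered 2 gave the larger rTreg difference for each complex, for example 28.5% against 14.9% in complex IV and 22.6% against 14.0% in complex I. Within a library, complex II made up 7.47% and 8.13% of the members' CPM in WT rTreg cells and 6.61% and 6.98% in Foxp1-deficient rTreg cells, and complex V made up 38.8% to 40.0% in all 8. Between subsets, the WT aTreg sums differed from the WT rTreg sums by −1.01%, 1.12%, −4.22%, −5.05% and −3.23% from complex I to V, and the Foxp1-deficient aTreg sums from the Foxp1-deficient rTreg sums by −8.53%, 3.76%, −7.48%, −13.3% and −10.5%. On the FPKM scale, which has no TMM scaling, the WT values were 3.11%, 5.06%, 1.05%, 0.0709% and 1.09%. The direction in WT cells thus depends on the scale for complexes I, III, IV and V. The Foxp1-deficient values were −4.57%, 9.06%, −2.76%, −7.94% and −6.83% in FPKM. For complexes I and III they were 0.458% and 2.11% in the pair numbered 1, against −9.36% and −7.33% in the pair numbered 2. Complexes IV and V were below 0 in both pairs, and complex II was above 0 in both. The rTreg genotype differences were 17.4%, 2.35%, 10.02%, 19.8% and 16.5% in FPKM. These sums are descriptions without a test, and each is led by its most abundant members. CPM is not scaled to gene length, so the order of the complexes in CPM is not their order per length. In FPKM the mean WT rTreg sums were 1075, 148, 395, 837 and 799 from complex I to V.

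**Figure D1:**
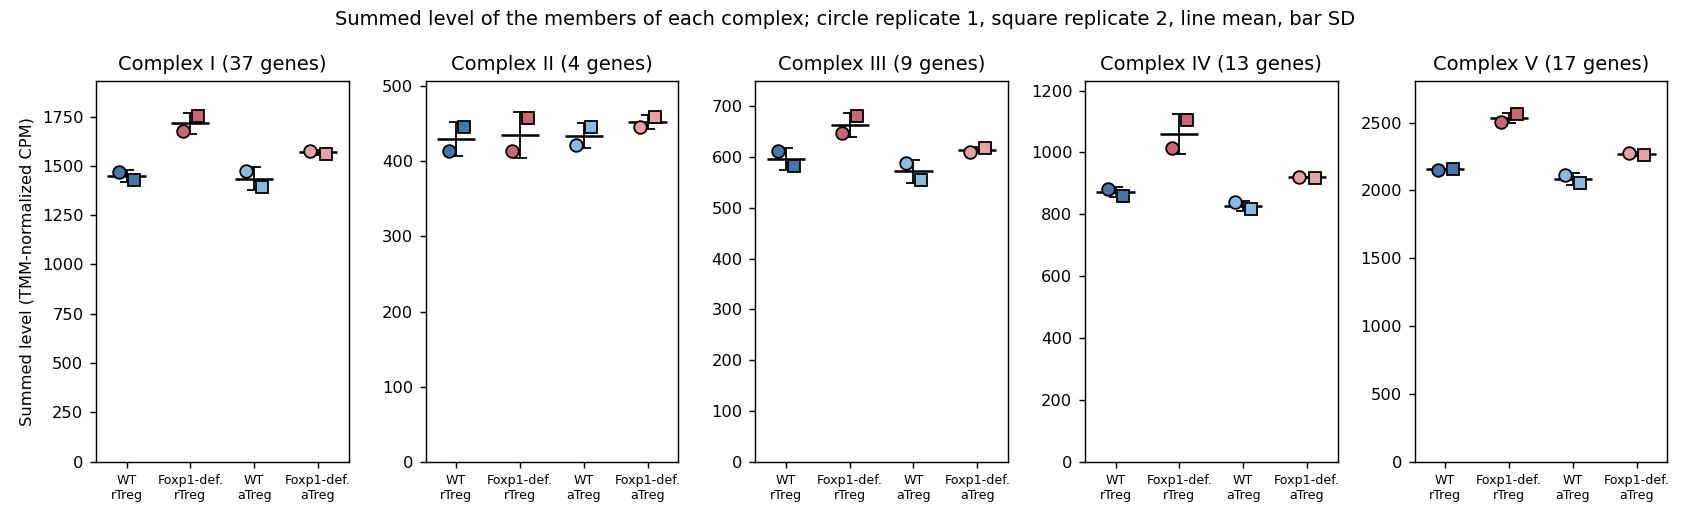
Summed TMM-scaled CPM of the members of each complex (vertical axes, from 0) in the 8 libraries, by group. Circles are the libraries numbered 1 and squares those numbered 2, horizontal lines are group means and error bars the SD of 2 libraries. Foxp1-deficient rTreg libraries are the highest for complexes I, III, IV and V, and the 8 libraries of complex II lie between 413 and 458 CPM.

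Single genes were ranked in level per length, by the FPKM the authors deposited. The highest mean over the 8 libraries was 88.1 FPKM for Ndufa6 in complex I, 69.7 for Sdha in complex II, 78.8 for Cyc1 in complex III, 192 for Cox6a1 in complex IV and 176 for Atp5a1 in complex V. The lowest was 0.756 for Ndufb2, 13.9 for Sdhc, 22.3 for Uqcrb, 0.775 for Cox6b2 and 3.27 for Atp5s. Ndufa6 is an accessory subunit of complex I, Sdha the flavoprotein that oxidizes succinate, Cyc1 cytochrome c1, Cox6a1 a small regulatory subunit, and Atp5a1 the alpha subunit of the F1 head.

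The first comparison asked which members differ between Foxp1-deficient and WT rTreg cells. Of the 80 members, 24 were up-regulated in Foxp1-deficient rTreg cells and 0 were down-regulated (edgeR quasi-likelihood test with the replicate number as a block, Benjamini-Hochberg adjusted over 14540 genes, adjusted p under 0.05). Over all genes tested, 6.57% were called higher and 5.45% lower. At an unadjusted p under 0.05 there were 49 members higher and 1 lower, beside 2157 and 1991 of the 14540 genes. No member was called lower by DESeq2 or limma-voom either. The members' median log2 fold change was 0.25, beside 0.00 over all genes tested, and 76 of 80 lay above 0. The median was 0.17 in the pair numbered 1 and 0.33 in the pair numbered 2, and 67 members lay above 0 in both pairs, as did 5050 of the 14540 genes. All differences were small. The called members had fold changes between 1.18 and 1.37, and 0 members passed the study's threshold of 1.5-fold.

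These calls rest on the pairing and on each of the 4 rTreg libraries. Without the replicate block 0 of the 80 members were called higher, while 33 were higher at an unadjusted p under 0.05 and the median stayed at 0.25. Without one of the WT rTreg libraries 1 or 0 members were called, and without one of the Foxp1-deficient rTreg libraries 2 or 0, with medians from 0.17 to 0.31. Genes of the cell cycle were higher in the same comparison. The 6 cycling markers summed to 16.1 to 21.9 CPM in WT rTreg and 109.8 to 153 in Foxp1-deficient rTreg cells, and 6 of 6 were called higher. The 8 myeloid markers summed to 0.786 to 1.93 CPM in WT rTreg, with Mpo and Elane at 0, and 6.86 to 17.7 in Foxp1-deficient rTreg cells, and 3 of the 6 tested were called higher. The part of either list in the members' difference was not tested. In WT aTreg cells the cycling markers summed to 94.2 to 175 CPM, and the members to 5267 and 5441 CPM, beside 5529.9 and 5475 in WT rTreg cells. WT aTreg and WT rTreg cells also differ by subset, so these sums are no test of the part of cycling cells.

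By complex, 8 of 37 members were called higher in complex I, 0 of 4 in complex II, 1 of 9 in complex III, 6 of 13 in complex IV and 9 of 17 in complex V. The complexes' median log2 fold changes were 0.25, 0.10, 0.13, 0.28 and 0.26. In complex II, 1 member had an unadjusted p under 0.05 with edgeR, 0 with DESeq2 and 1 with limma-voom, and 0 were called by any of the 3. Complexes I, III, IV and V had 3, 0, 4 and 6 calls by DESeq2 and 5, 0, 6 and 9 by limma-voom. Of the 14540 genes, DESeq2 called 724 higher and limma-voom 879. With the trend with gene length removed, edgeR kept the 9 calls of complex V (adjusted p from 0.015 to 0.0452). It lost Uqcr10 of complex III (adjusted p = 0.14) and Cox8a, Cox7a2l, Cox6b1 and Cox6a1 of complex IV (0.0933, 0.0969, 0.123 and 0.204). In complex I it lost Ndufa8, Ndufa13, Ndufb10 and Ndufb6 (0.057, 0.0523, 0.065 and 0.129). No test compared the complexes with each other.

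**Figure D2:**
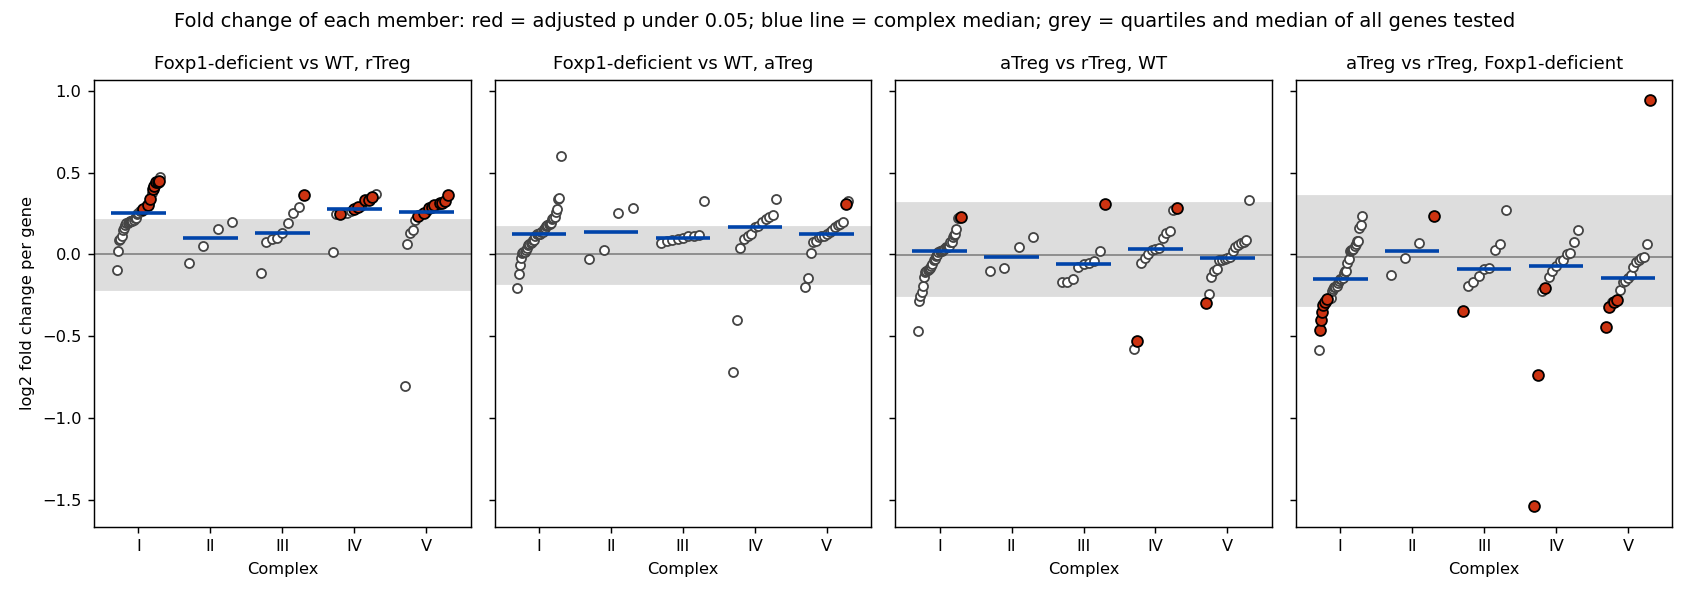
Log2 fold change of each member (vertical axis) by complex (horizontal axis) in 4 panels, for Foxp1-deficient against WT cells in rTreg and aTreg cells, and for aTreg against rTreg cells in each genotype. Each point is a gene, red where the adjusted p was under 0.05, blue lines are the medians of each complex, and the grey band and line are the quartiles and median of all genes tested; medians of complexes I, IV and V lie at 0.25, 0.28 and 0.26 in the first panel and at 0.13, 0.17 and 0.12 in the second.

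In complex I the smallest adjusted p was that of Ndufa10, an accessory subunit of the membrane arm. Ndufa10 was at 67.9 and 59.5 CPM in WT rTreg, 85.4 and 87.2 in Foxp1-deficient rTreg, 60.0 and 58.9 in WT aTreg and 65.6 and 65.3 in Foxp1-deficient aTreg cells. Both Foxp1-deficient rTreg libraries were above all the others, and the 6 other libraries lay within 58.9 to 67.9 CPM. Its log2 fold change in rTreg cells was 0.44 (SE 0.0718, adjusted p = 0.00962). Ndufv3, a small subunit near the NADH-binding module, was at 48.4 and 42.0, 61.0 and 61.0, 47.4 and 41.3, and 53.5 and 52.3 CPM in the same order. Its rTreg difference was 0.44 (SE 0.0797, adjusted p = 0.014), again with no overlap of the genotypes. Ndufa8, an accessory subunit on the intermembrane side, had the largest difference of the called members, 0.45 (SE 0.102, adjusted p = 0.0294), at 50.2 and 42.0 CPM in WT and 60.2 and 64.2 in Foxp1-deficient rTreg cells. The other 5 called members of complex I were Ndufa13, Ndufb10, Ndufs4, Ndufb6 and Ndufb7, with log2 fold changes from 0.28 to 0.42 and adjusted p from 0.0367 to 0.0499. Ndufa12, an accessory subunit related to an assembly factor, had the largest log2 fold change of the complex, 0.47 (SE 0.186, adjusted p = 0.142). It was at 10.4 and 8.17 CPM in WT rTreg and 16.3 and 10.1 in Foxp1-deficient rTreg cells, so the genotypes overlapped.

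Split by role, all 8 calls of complex I fell among its 30 accessory members, which by name include Ndufa4. Their median log2 fold change was 0.27, with 3 calls there by DESeq2 and 5 by limma-voom. Of its 7 nuclear-encoded core subunits, which together hold the flavin, the iron-sulfur clusters and the ubiquinone site, 0 were called by edgeR, DESeq2 or limma-voom. Their median was 0.18, with 4, 0 and 4 members at an unadjusted p under 0.05 by these tools. Ndufs1, the largest core subunit, was at 74.6 and 68.4 CPM in WT and 70.6 and 73.7 in Foxp1-deficient rTreg cells, and the libraries overlapped (log2 fold change 0.02, SE 0.0727, adjusted p = 0.884). The role groups were drawn after the values were seen and were not compared by a test.

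Of complex II, Sdha was at 262 and 279.6 CPM in WT rTreg, 250.2 and 271 in Foxp1-deficient rTreg, 273 and 285 in WT aTreg and 269.6 and 277 in Foxp1-deficient aTreg cells, and the genotypes overlapped. Its log2 fold change was −0.06 in rTreg cells (SE 0.0536, adjusted p = 0.554) with a 95% interval from −0.18 to 0.07. Sdhb, the iron-sulfur subunit, was at 67.4 and 71.7, 74.6 and 84.4, 66.4 and 65.4, and 79.3 and 77.5 CPM. Its Foxp1-deficient libraries were above WT in both subsets, but the differences of 0.20 and 0.25 did not pass the adjusted test (adjusted p = 0.123 in rTreg and 0.082 in aTreg cells). The membrane anchors were Sdhc, at 44.1 and 48.6, 45.9 and 50.2, 40.4 and 45.9, and 42.8 and 45.1 CPM, and Sdhd, at 40.0 and 45.4, 43.0 and 51.9, 42.1 and 49.9, and 53.7 and 58.4 CPM. For Sdhc the genotypes overlapped in both subsets, and for Sdhd they overlapped in rTreg cells and not in aTreg cells. The rTreg differences were 0.05 for Sdhc (adjusted p = 0.687) and 0.16 for Sdhd (adjusted p = 0.212). Since Sdha made up more CPM than the other 3 genes together in each library, it set the CPM sum of complex II. Per length, the WT rTreg means were 69.0 FPKM for Sdha, 30.8 for Sdhb, 14.1 for Sdhc and 34.3 for Sdhd.

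Of complex III, Uqcr10, a small subunit beside cytochrome c1, was the member called. It was at 25.5 and 29.6 CPM in WT rTreg, 32.7 and 37.99 in Foxp1-deficient rTreg, 33.9 and 34.4 in WT aTreg and 37.1 and 37.0 in Foxp1-deficient aTreg libraries. The WT rTreg pair was below the other 6 libraries. The log2 fold change in rTreg cells was 0.36 (SE 0.0961, adjusted p = 0.0491). Cyc1 was at 99.1 and 93.5 CPM in WT and 103 and 102 in Foxp1-deficient rTreg cells, a difference of 0.09 (adjusted p = 0.348). Uqcrb, which binds near the ubiquinone site, was at 19.5 and 20.2 CPM in WT and 15.6 and 20.9 in Foxp1-deficient rTreg cells, with a difference of −0.11 (SE 0.135, adjusted p = 0.639).

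Of complex IV, Cox8a was at 68.9 and 72.7 CPM in WT rTreg, 84.9 and 93.4 in Foxp1-deficient rTreg, 87.2 and 85.6 in WT aTreg and 96.8 and 102 in Foxp1-deficient aTreg cells. This small nuclear-encoded subunit was lowest in WT rTreg cells, and no groups compared overlapped. Its rTreg difference was 0.33 (SE 0.0653, adjusted p = 0.0187). Cox4i1, the largest nuclear-encoded subunit, was at 115 and 117, 140.1 and 152, 120.5 and 113, and 127 and 128 CPM. The genotypes did not overlap in rTreg cells (0.33, SE 0.0682, adjusted p = 0.0217). Cox6a1, the most abundant of all members per length, was at 136 and 115 CPM in WT and 152 and 151 in Foxp1-deficient rTreg cells (0.28, SE 0.0697, adjusted p = 0.0427). The other calls were Cox6c, Cox6b1 and Cox7a2l, with log2 fold changes of 0.29, 0.35 and 0.25. Cox7a2 had the largest difference, 0.37, at 20.9 and 26.9 CPM in WT and 26.1 and 35.5 in Foxp1-deficient rTreg cells, with overlap of the genotypes (SE 0.109, adjusted p = 0.0663).

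Of complex V, Atp5f1, subunit b of the peripheral stalk, was at 101 and 107 CPM in WT rTreg, 122 and 136 in Foxp1-deficient rTreg, 97.4 and 109 in WT aTreg and 124 and 131 in Foxp1-deficient aTreg libraries. The 4 Foxp1-deficient libraries were above the 4 WT libraries. Its rTreg difference was 0.31 (SE 0.0594, adjusted p = 0.0172). Atp5h, subunit d of the same stalk, was at 98.3 and 101, 121 and 135, 87.1 and 99.2, and 107 and 104 CPM, with an rTreg difference of 0.36 (SE 0.074, adjusted p = 0.0214). Of the 5 F1 subunits 4 were called, namely Atp5b, Atp5c1, Atp5d and Atp5e, with differences from 0.24 to 0.32, and the other, Atp5a1, was at 536 and 532 CPM in WT and 596 and 588 in Foxp1-deficient rTreg cells (0.15, SE 0.0485, adjusted p = 0.0901). Atp5b, the catalytic beta subunit, was at 531 and 572 CPM in WT and 643 and 655 in Foxp1-deficient rTreg cells (0.24, SE 0.0492, adjusted p = 0.0225). The remaining calls were Atp5g2 and Atp5g3 of the c ring and Atp5j2 of the membrane part, with differences of 0.29, 0.26 and 0.33. Atp5s, which is named for the synthase but is no subunit of it, was the member with the largest difference, −0.81, at 4.33 and 5.42 CPM in WT and 3.35 and 2.46 in Foxp1-deficient rTreg cells (SE 0.284, adjusted p = 0.109).

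**Figure D3:**
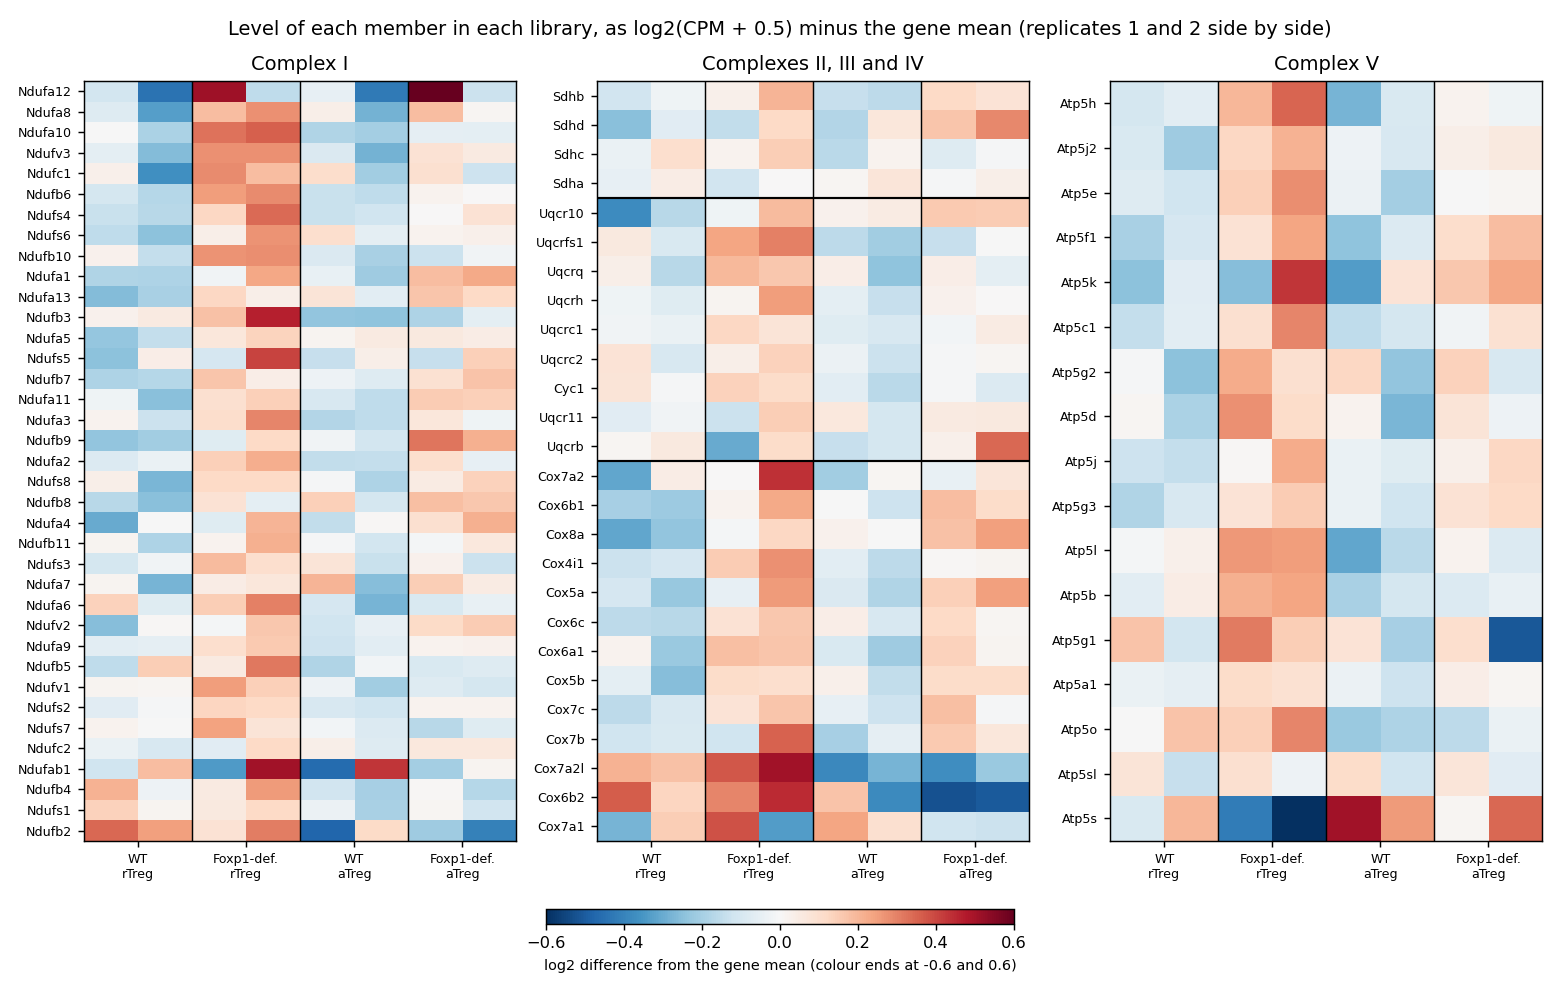
Level of the 80 members (rows, by complex and within it from the highest to the lowest rTreg genotype difference) in the 8 libraries (columns), as the log2(CPM + 0.5) difference from each gene's mean over the libraries, with colours ending at −0.6 and 0.6. The Foxp1-deficient rTreg columns are above the gene mean for most members of complexes I, IV and V, and Cox7a2l is above its mean in all 4 rTreg columns and below it in all 4 aTreg columns.

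**Figure D4:**
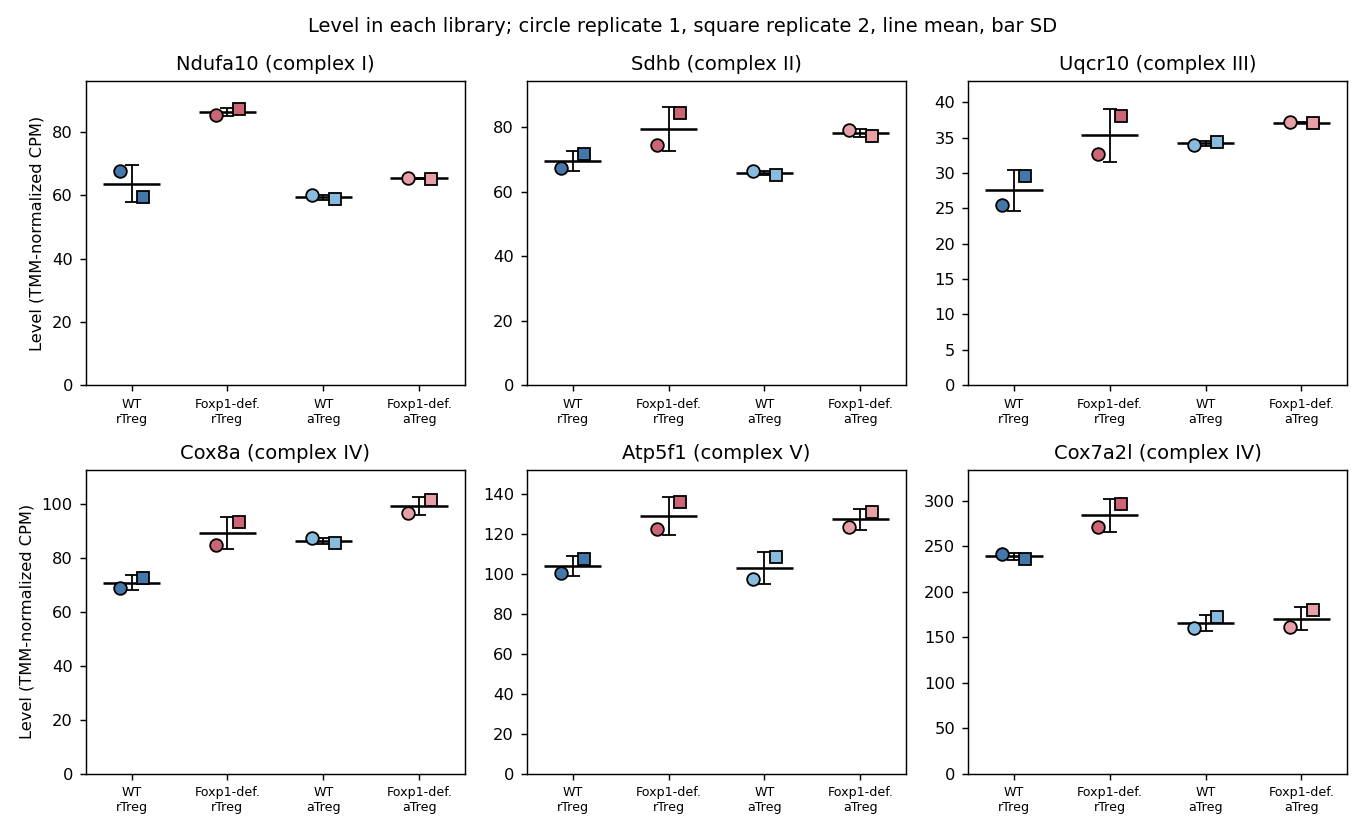
TMM-scaled CPM of 6 members (vertical axes, from 0) in each library, by group. Circles are the libraries numbered 1 and squares those numbered 2, horizontal lines are group means and error bars the SD. Ndufa10 is highest in the Foxp1-deficient rTreg pair, Atp5f1 lies higher in both Foxp1-deficient groups, and Cox7a2l is lower in both aTreg groups.

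The promoters of the members were searched for short motifs. RefSeq promoters (GRCm38.p6, 250 bases before to 50 after the start) were given for 65 of the 80 members. The sequences shown are those of the member with the smallest rTreg adjusted p in each complex for which a promoter was given, with Cox7a2l added for its difference between rTreg and aTreg cells. They are at chr1:92473709-92474008 on the minus strand (Ndufa10), chr4:140961021-140961320 on the plus strand (Sdhb), chr11:4704295-4704594 on the minus strand (Uqcr10), chr19:7217567-7217866 on the minus strand (Cox8a), chr17:83514284-83514583 on the minus strand (Cox7a2l) and chr11:115419870-115420169 on the minus strand (Atp5h). Each reads 5′ to 3′ along the gene, and capitals mark a match, on either strand, to the letters of an ETS-type motif (CCGGAAG or its reverse complement CTTCCGG) or of an NRF1-type motif (GCGCANGCG).
Ndufa10: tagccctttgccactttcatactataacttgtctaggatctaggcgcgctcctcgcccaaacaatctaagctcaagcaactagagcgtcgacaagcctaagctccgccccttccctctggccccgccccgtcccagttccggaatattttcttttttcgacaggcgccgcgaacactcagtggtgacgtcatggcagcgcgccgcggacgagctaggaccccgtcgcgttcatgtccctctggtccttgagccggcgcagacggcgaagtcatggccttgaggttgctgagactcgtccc
Sdhb: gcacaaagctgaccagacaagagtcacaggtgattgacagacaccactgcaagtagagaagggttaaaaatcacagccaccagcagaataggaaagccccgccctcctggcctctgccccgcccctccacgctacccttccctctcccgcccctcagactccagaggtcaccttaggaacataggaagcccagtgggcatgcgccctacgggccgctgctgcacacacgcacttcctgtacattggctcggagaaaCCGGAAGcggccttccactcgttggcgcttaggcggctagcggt
Uqcr10: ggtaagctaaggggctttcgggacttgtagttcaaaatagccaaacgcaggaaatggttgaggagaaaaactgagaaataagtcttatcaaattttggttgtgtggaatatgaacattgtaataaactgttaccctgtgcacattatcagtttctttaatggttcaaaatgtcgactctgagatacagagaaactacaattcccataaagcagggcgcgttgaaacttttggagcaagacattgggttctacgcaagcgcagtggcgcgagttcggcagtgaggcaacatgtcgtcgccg
Cox8a: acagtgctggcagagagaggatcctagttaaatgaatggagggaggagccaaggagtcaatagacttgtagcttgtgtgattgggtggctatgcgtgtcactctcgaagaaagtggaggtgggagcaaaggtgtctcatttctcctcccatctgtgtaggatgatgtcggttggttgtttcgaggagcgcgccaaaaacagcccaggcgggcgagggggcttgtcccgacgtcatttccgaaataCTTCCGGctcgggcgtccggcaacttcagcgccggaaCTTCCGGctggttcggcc
Cox7a2l: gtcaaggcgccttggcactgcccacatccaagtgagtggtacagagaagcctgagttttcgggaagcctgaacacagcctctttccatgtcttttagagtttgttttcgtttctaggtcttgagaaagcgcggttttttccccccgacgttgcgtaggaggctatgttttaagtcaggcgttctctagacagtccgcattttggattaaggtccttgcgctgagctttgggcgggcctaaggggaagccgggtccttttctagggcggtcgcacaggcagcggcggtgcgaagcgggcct
Atp5h: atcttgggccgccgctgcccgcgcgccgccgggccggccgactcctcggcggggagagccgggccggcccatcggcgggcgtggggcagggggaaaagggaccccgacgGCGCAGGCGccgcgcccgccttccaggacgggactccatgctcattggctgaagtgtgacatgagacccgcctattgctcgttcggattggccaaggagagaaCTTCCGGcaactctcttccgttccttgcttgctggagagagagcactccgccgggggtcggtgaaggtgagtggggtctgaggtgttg

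Sdhb had 1 ETS-type match, 7 bases after the start, and Cox8a had 2, at −5 and 33. Atp5h had an NRF1-type match at −141 and an ETS-type match at −38. No match to the letters searched was in the windows of Ndufa10, Uqcr10 and Cox7a2l, all 3 of which were called in the rTreg genotype comparison. NRF1-type letters were in 20 of the 65 members' promoters (30.8%), beside 15.3% of 9703 tested genes and 7.03% of 27025 genes with a promoter. By complex these were 8 of 33, 2 of 3, 2 of 5, 1 of 11 and 7 of 13. ETS-type letters were in 16 (24.6%), beside 20.7% and 9.93%. YY1-type letters (AAGATGGCG) were in 7 (10.8%, beside 3.66% and 1.64%) and ERR-type letters (TCAAGGTCA) in 2 (3.08%, beside 0.35% and 0.466%). Forkhead-type letters (GTAAACA), of the family to which Foxp1 belongs, were in 1 of the 65 (1.54%), Cox7a2, beside 3.10% and 4.05%. NRF1, GABP of the ETS family, YY1 and ERR are known for acting on genes of the respiratory chain, and all searches covered both strands. These are matches of letters only. A protein-coding gene started on the other strand within 1000 bases upstream of 19 of the 80 members (23.8%), for example Kctd2 beside Atp5h and Zmat5 beside Uqcr10, as it did for 10.6% of 11783 tested protein-coding genes.

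The same question was asked in aTreg cells. Of the 80 members 1 was up-regulated in Foxp1-deficient aTreg cells, Atp5f1, and 0 were down-regulated, beside 4.11% and 2.77% of all genes tested. At an unadjusted p under 0.05 there were 20 higher and 0 lower by edgeR, 9 and 0 by DESeq2, and 24 and 0 by limma-voom. Neither of the other tools called a member lower. Of the 14540 genes, edgeR had 1879 higher and 1506 lower at that unadjusted p. The members' median log2 fold change was 0.12, beside 0.00 over all genes, with 71 of 80 above 0. The complexes' medians were 0.13, 0.14, 0.10, 0.17 and 0.12 from I to V. The log2 fold change of Atp5f1 was 0.31 (SE 0.0589, adjusted p = 0.0248), and 0 members were called higher without the replicate block or in the libraries of the comparison alone. Cycling markers summed to 94.2 to 175 CPM in WT and 304.5 to 429 in Foxp1-deficient aTreg cells (6 of 6 called higher), and myeloid markers to 4.36 to 5.38 and 4.74 to 31.2 CPM (1 of 6 called higher), with the 31.2 in 1 library. Their part in the members' values was not tested.

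Ndufb9, an accessory subunit of complex I, was at 36.3 and 34.2 CPM in WT and 46.2 and 42.9 in Foxp1-deficient aTreg cells, a difference of 0.34 (SE 0.0937, adjusted p = 0.0755) with no overlap. Ndufa12 was at 10.9 and 8.27 CPM in WT and 19.95 and 10.3 in Foxp1-deficient aTreg cells (0.60, SE 0.178, adjusted p = 0.0902). In all 4 groups its library numbered 1 was above its library numbered 2, and the genotypes overlapped. Sdhd, whose 2 Foxp1-deficient libraries were the highest of the 8, had a difference of 0.28 (SE 0.0705, adjusted p = 0.0547). Uqcrb was at 17.6 and 17.95 CPM in WT and 19.8 and 24.7 in Foxp1-deficient aTreg cells (0.33, SE 0.131, adjusted p = 0.184). Cox6a1 was at 126 and 116 CPM in WT and 148 and 136 in Foxp1-deficient aTreg cells (0.23, SE 0.0693, adjusted p = 0.0936). Atp5k, subunit e of the synthase, was at 10.97 and 14.8 CPM in WT and 15.7 and 16.5 in Foxp1-deficient aTreg cells (0.33, SE 0.167, adjusted p = 0.29). Cox6b2, with 5 to 18 counts in a library, had a difference of −0.72 (SE 0.513, adjusted p = 0.454).

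An interaction term tested whether the genotype difference itself changed from rTreg to aTreg cells. No member was called, with 0 higher and 0 lower by edgeR, DESeq2 and limma-voom, beside 0.186% and 0.144% of all genes called higher and lower by edgeR. At an unadjusted p under 0.05 there were 1 higher and 2 lower by edgeR, 0 and 0 by DESeq2, and 0 and 3 by limma-voom. Of the 14540 genes, edgeR had 975 higher and 887 lower at that unadjusted p. For 65 of 80 members the rTreg difference was above the aTreg difference, and the median of aTreg minus rTreg differences was −0.09, beside −0.01 over all genes. The smallest adjusted p was that of Ndufa10 (−0.31, SE 0.101, adjusted p = 0.256), with a 95% interval from −0.54 to −0.07 before adjustment. Uqcrb was the member above 0 at an unadjusted p under 0.05 (0.44, SE 0.188, adjusted p = 0.386). The 24 calls in rTreg cells and the 1 in aTreg cells therefore do not show that the genotypes differed more in rTreg cells.

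In WT cells, aTreg were compared with rTreg cells. Of the 80 members 3 were higher in aTreg cells (Ndufa13, Uqcr10 and Cox8a) and 2 were lower (Cox7a2l and Atp5o), beside 18.2% and 13.6% of all genes tested. The members' median was 0.00 and 40 of 80 lay above 0. Cox7a2l was at 241 and 236 CPM in WT rTreg, 271 and 297 in Foxp1-deficient rTreg, 159.6 and 172 in WT aTreg and 161 and 179 in Foxp1-deficient aTreg cells. Every aTreg library was below every rTreg library. The aTreg minus rTreg difference was −0.53 in WT (SE 0.0645, adjusted p = 0.000711) and −0.74 in Foxp1-deficient cells (SE 0.0646, adjusted p = 9.9e-05). Atp5o, the subunit that joins the peripheral stalk to the F1 head, was at 42.9 and 48.6, 47.5 and 52.7, 36.8 and 37.8, and 38.6 and 41.8 CPM. It fell in aTreg cells of both genotypes, with differences of −0.30 in WT (SE 0.0735, adjusted p = 0.0182) and −0.32 in Foxp1-deficient cells (SE 0.0736, adjusted p = 0.0106). Cox7a2l and Atp5o were the 2 members called lower in both genotypes. Cox7a2l kept both calls with DESeq2 and with edgeR without the replicate block. Atp5o lost both with DESeq2 (adjusted p = 0.0846 in WT and 0.0635 in Foxp1-deficient cells) and without the block (edgeR, adjusted p = 0.113 and 0.0718). Each of the 2 genes has a near-identical copy (Gm6969 and Gm5436), and Atp5o overlaps annotated genes on both strands.

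The 3 members higher in WT aTreg cells were small subunits. Ndufa13, an accessory subunit of complex I also named GRIM-19, was at 47.7 and 49.96 CPM in WT rTreg, 62.5 and 58.6 in Foxp1-deficient rTreg, 60.3 and 54.7 in WT aTreg and 64.2 and 62.1 in Foxp1-deficient aTreg libraries. The WT rTreg pair was the lowest, and the subset difference was 0.23 in WT (SE 0.0726, adjusted p = 0.0445). Uqcr10 and Cox8a, given above, had differences of 0.31 (SE 0.0947, adjusted p = 0.0412) and 0.29 (SE 0.0647, adjusted p = 0.0124). In the rTreg genotype comparison, which shares the WT rTreg libraries, these members differed by 0.31, 0.36 and 0.33. Members with other large differences were low in level. Ndufb2 was at 5.43 and 5.03 CPM in WT rTreg and 2.85 and 4.55 in WT aTreg cells (−0.47, SE 0.262, adjusted p = 0.213), with no overlap. Cox6b2 and Atp5s differed by −0.58 (adjusted p = 0.363) and 0.33 (adjusted p = 0.35), and Sdhd, with the largest difference of complex II, by 0.11 (adjusted p = 0.292). The cycling markers were also higher in WT aTreg than in WT rTreg cells (6 of 6 called), and 2 of 3 tested B-cell markers were, at sums of 7.92 to 9.03 and 19.2 to 19.9 CPM. Their part in the members' values was not tested.

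In Foxp1-deficient cells, 2 members were higher in aTreg than in rTreg cells and 14 were lower, beside 21.9% and 18.2% of all genes tested. The 14 lower are 17.5% of the 80 members, near the share over all genes. The median was −0.13, beside −0.02 over all genes, and 22 of 80 lay above 0. With the length trend removed the median was −0.06, 30 of 80 lay above 0, and 20 members were called lower and 8 higher. In that fit 2937 of the 14540 genes were called lower and 3058 higher. Called lower were 6 of 37 members of complex I (Ndufa10, Ndufb3, Ndufv1, Ndufb10, Ndufs7 and Ndufa6), 1 of 9 of complex III (Uqcrfs1), 3 of 13 of complex IV (Cox7a2l, Cox6b2 and Cox4i1) and 4 of 17 of complex V (Atp5b, Atp5o, Atp5g1 and Atp5h). Complex II had 0 lower and 1 higher, Sdhd (0.24, SE 0.0716, adjusted p = 0.0312). This comparison shares the Foxp1-deficient rTreg libraries with the rTreg genotype comparison, so their calls are not independent. The differences in the genotype and the subset comparison were 0.44 and −0.40 for Ndufa10, 0.24 and −0.29 for Atp5b, and 0.29 and −0.34 for Uqcrfs1, the Rieske iron-sulfur protein, the first of which was not called for Uqcrfs1 (adjusted p = 0.0615). Atp5b was at 486 and 516 CPM in WT aTreg and 524 and 538 in Foxp1-deficient aTreg cells, below its levels in rTreg cells of the same genotype. The 6 cycling markers were higher in aTreg cells here as well (6 of 6 called), and their part was not tested. Of the 14 members called lower, Ndufa6 (−0.01, adjusted p = 0.971) and Ndufb3 (−0.23, adjusted p = 0.12) were not called with the length trend removed. Without the replicate block 6 members were called lower and 0 higher. Without the Foxp1-deficient rTreg library numbered 2 the median was −0.03, and 4 members were called lower and 0 higher.

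The calls of Cox6b2 and Atp5s rest on few counts. Cox6b2, the testis-type isoform of subunit 6b, had between 5 and 18 counts in a library. It was at 1.12 and 1.30 CPM in Foxp1-deficient rTreg and 0.419 and 0.431 in Foxp1-deficient aTreg cells (−1.54, SE 0.481, adjusted p = 0.036). Atp5s, with 21 to 84 counts in these libraries, was at 3.35 and 2.46 CPM in Foxp1-deficient rTreg and 4.69 and 6.04 in Foxp1-deficient aTreg cells (0.94, SE 0.279, adjusted p = 0.0292). Atp5g1, at 43.2 and 38.5 CPM against 37.2 and 24.2, was called lower (−0.44, SE 0.115, adjusted p = 0.0177), and its lowest level was in 1 library.

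Several complex IV and V subunits have more than 1 gene. Among the Cox6b genes, Cox6b1 made up 98.5% to 99.6% of the set's FPKM in a library and Cox6b2 the other 0.418% to 1.55%. Cox7a2l made up 83.0% to 89.8% of the Cox7a set, with 86.9% to 89.8% in the 4 rTreg libraries and 83.0% to 83.9% in the 4 aTreg libraries. Cox7a2, the subunit expressed in most tissues, made up 9.45% to 15.8%, and Cox7a1, the heart and muscle isoform, 0.544% to 1.73% at 0.867 to 1.75 CPM. Of the c-ring genes, which encode the same mature protein, Atp5g2 made up 50.6% to 55.9%, Atp5g3 38.4% to 45.8% and Atp5g1 3.63% to 6.04%. Cox4i1, Cox6a1 and Cox8a were the only members of their sets, the other isoforms being under the count minimum.

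The X-linked members were Ndufa1, Ndufb11 and Cox7b, of which 0 of 3 were called in a comparison between genotypes or subsets. Ndufa1 was at 20.2 and 20.1 CPM in WT rTreg, 22.6 and 27.0 in Foxp1-deficient rTreg, 22.3 and 19.7 in WT aTreg and 26.2 and 27.0 in Foxp1-deficient aTreg libraries. The genotypes did not overlap in either subset, and the differences were 0.31 (adjusted p = 0.142) and 0.35 (adjusted p = 0.133). Ndufb11 was at 64.3 and 55.9 CPM in WT and 64.5 and 73.7 in Foxp1-deficient rTreg cells (0.21, adjusted p = 0.203), and Cox7b at 42.6 and 43.4 against 42.6 and 59.2 (0.25, adjusted p = 0.235).

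Genes that work with the nuclear subunits were read from lists of the same pathway. Of the 13 subunits encoded by the mitochondrion itself, 12 were tested. In rTreg cells 0 were called in either direction (median log2 fold change 0.10), and in aTreg cells 1 was lower, mt-Nd1 (−0.22, SE 0.0524, adjusted p = 0.0496), with a median of −0.12. The nuclear members had medians of 0.25 and 0.12 in these comparisons. Over all genes tested, 2.77% were called lower in the aTreg genotype comparison. In Foxp1-deficient cells 6 of the 12 were lower in aTreg than in rTreg cells, beside 18.2% of all genes tested. The summed CPM of the mitochondrial list was 7612 to 7833 in WT rTreg, 8037 to 8392 in Foxp1-deficient rTreg, 7375 to 8088 in WT aTreg and 6962 to 7228 in Foxp1-deficient aTreg cells.

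Of 14 assembly factors of complex I, 1 was called higher in Foxp1-deficient rTreg cells, Foxred1 (0.38, SE 0.0937, adjusted p = 0.0414), and 0 were lower. Over all genes tested, 6.57% were called higher and 5.45% lower in this comparison, so 1 of 14 is near that share. Of the 20 tested factors of complex IV, 0 were called in either genotype comparison (medians 0.13 and 0.09), and the 4, 6 and 3 factors of complexes II, III and V had 0 calls with rTreg medians of 0.08, −0.00 and 0.03. Of 16 tested regulators of mitochondrial biogenesis, 1 was lower in Foxp1-deficient rTreg cells, Gabpb2, a partner of the ETS factor GABP (−0.29, adjusted p = 0.0189). In aTreg cells 1 was lower, Twnk, the mitochondrial DNA helicase (−0.57, adjusted p = 0.0122). Over all genes tested, 5.45% were called lower in rTreg and 2.77% in aTreg cells. Of 15 genes for coenzyme Q synthesis and cytochrome c, 0 were called in the genotype comparisons.

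Of 13 genes of the tricarboxylic acid cycle, 3 were higher in Foxp1-deficient rTreg cells, beside 6.57% of all genes tested. Idh3a, the catalytic subunit of the NAD-linked isocitrate dehydrogenase, was at 48.7 and 44.9 CPM in WT rTreg, 99.1 and 99.4 in Foxp1-deficient rTreg, 57.3 and 55.8 in WT aTreg and 98.6 and 96.9 in Foxp1-deficient aTreg libraries. The genotypes were far apart in both subsets, with differences of 1.09 (SE 0.0629, adjusted p = 0.000127) and 0.79 (SE 0.0613, adjusted p = 0.00109), above the 0.45 and 0.31 of the called members with the largest differences. Suclg1, of succinyl-CoA ligase, and Cs, citrate synthase, differed by 0.31 (adjusted p = 0.0291) and 0.26 (adjusted p = 0.0352) in rTreg cells. Sdha, which works in the same cycle, did not pass the test in either genotype comparison.

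**Figure D5:**
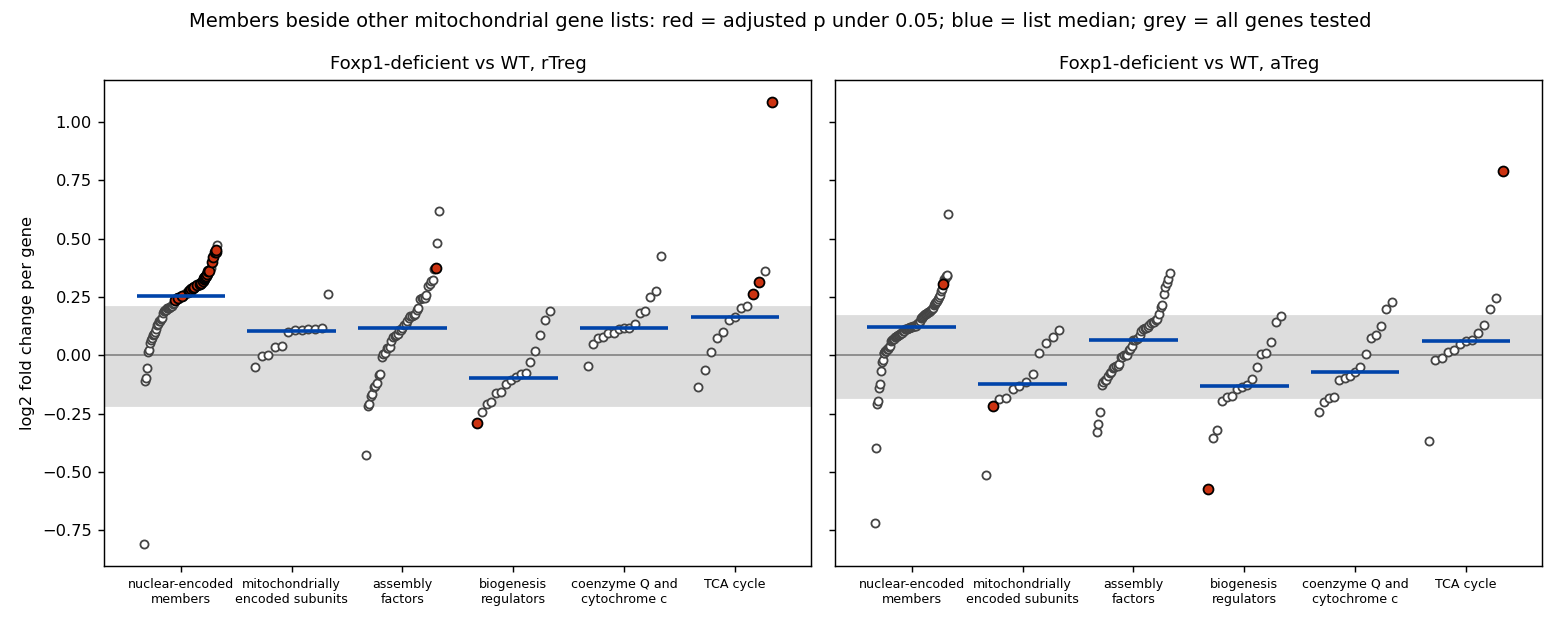
Log2 fold change between Foxp1-deficient and WT cells (vertical axis) of the genes in each list (horizontal axis), for rTreg and aTreg cells. Each point is a gene, red where the adjusted p was under 0.05, blue lines are list medians, and the grey band and line are the quartiles and median of all genes tested. The members' medians are 0.25 and 0.12, those of the mitochondrially encoded subunits 0.10 and −0.12, and Idh3a is the highest point of the tricarboxylic acid cycle list.

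Transcript length and near copies also bear on how the counts read. Their transcripts are short, with a median merged exon length of 1542 bases beside 3586.5 over all genes tested. With the trend of each library with gene length removed, 15 members were called higher in rTreg cells in place of 24, and the median was 0.21. In that fit 926 of the 14540 genes were called higher. Near-identical copies, at 95% identity or more over 200 bases or more in GENCODE M21 transcripts, were found for 23 members. Of the 24 called in rTreg cells, 6 had such a copy (Cox6c, Cox7a2l, Atp5c1, Atp5f1, Atp5g2 and Atp5h) and 18 had none, so for the first group the counts are uncertain where reads could be split. Of the 80 members, 28 overlapped a gene on the other strand and 12 a gene on the same strand, and reads of such pairs cannot be told apart where the counting did not use strand.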

How the data were processed

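RNA sequencing of 8 libraries gave 2 deposited tables for the series, of counts and of FPKM. The authors used trim_galore on adapters and low-quality ends, Picard against duplicates and htseq-count for the number of reads per gene, and the submitters' processing notes name HISAT2 2.0.5 and mm10. The annotation release and the strand setting are not given in the sources used here. The deposited counts were tested as deposited, and the FPKM the authors deposited, which equal count over total and length (relative spread at most 7.06e-06 for genes with 20 or more counts in each library), served for levels between genes and isoform shares.

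edgeR 4.0.16 in R 4.3.3 fitted the quasi-likelihood model to all 8 libraries (group means and replicate number, TMM, filterByExpr with a minimum count of 10). It tested 14540 genes, left out 13054, and all 80 members passed. Genes with a Benjamini-Hochberg adjusted p under 0.05 were called. The replicate numbers come from the sample titles, and the study analysed paired samples to offset batches. Same-numbered libraries deviated together over the 6 pairs of groups. Values of r over genes were 0.576 between the WT subsets, 0.525 between the Foxp1-deficient subsets and 0.333 to 0.439 between genotypes. The labels do not say whether the 2 subsets of a genotype came from the same mice, and the fit does not model such sharing. The replicate number also separates the sexes, so a batch and sex cannot be told apart in the block. Alternatives were the fit without the replicate block, DESeq2 1.42.0, limma-voom (limma 3.58.1), median-of-ratios scaling, no filter, removal of the length trend (loess, span 0.3), each comparison's libraries alone, each library left out, and the study's folds of 1.5 (genotype) and 2 (subset). The script was tested on simulated data. Copies were sought with blastn 2.17.0 in GENCODE M21.

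The members, lists and tests were chosen with earlier results of these data known. Members named with values were, per complex, the highest in FPKM, those with the smallest adjusted p or largest difference in the rTreg, aTreg and WT subset comparisons, all of complex II, isoform sets, X-linked members and those nearest the minimum. Other called members, Ndufs1, Cyc1, Uqcrb in the interaction and Ndufa13 were named after their values were seen. Of the genes that are no members, Foxp1 and called genes of the lists were named. One marker of the sort, and the list of rTreg markers that holds it, are not reported here.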

Additional observations from a re-analysis of the deposited data

How the results depend on the processing

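The rTreg genotype comparison kept its direction, with a median of 0.17 to 0.31 over the fits that left out 1 library, but its 24 calls did not hold in every fit. They were 0 without the replicate block (all genes then had 181 calls higher and 119 lower), 13 with DESeq2, 15 with the length trend removed, 0 past the 1.5-fold threshold, and 0 to 19 with 1 library left out. With 1 library left out, its group has 1 sample, which is assumed to vary like the other groups. The 1 call in aTreg cells became 0 without the replicate block, 3 without the low-count filter, 0 in the comparison's libraries alone, 0 past the 1.5-fold threshold and 0 to 1 with 1 library left out, and the median was 0.079 to 0.16. The 3 members higher in WT aTreg cells became 0 without the replicate block, 1 with DESeq2, 1 with limma-voom, 1 without the filter, 7 with the length trend removed, 0 past the 2-fold threshold and 0 to 2 with 1 library left out. The 2 lower became 1 without the replicate block, 1 with DESeq2, 5 in the comparison's libraries alone, 0 past the 2-fold threshold and 1 to 2 with 1 library left out, and the median of 0.00 went from −0.043 to 0.033. In Foxp1-deficient cells the 2 members higher in aTreg cells became 0 without the replicate block, 0 with DESeq2, 1 with limma-voom, 8 with the length trend removed, 0 past the 2-fold threshold and 0 to 2 with 1 library left out. The 14 lower became 6 without the replicate block, 9 with DESeq2, 22 in the comparison's libraries alone, 1 past the 2-fold threshold and 4 to 15 with 1 library left out, with medians from −0.17 to −0.027. With the length trend removed 20 were called lower, and the median was −0.064. The interaction had 0 calls in every fit, with medians from −0.15 to −0.034. A stricter fold threshold or a fit to fewer libraries changes a count by its construction, and for the other settings the cause was not tested. Of the values for called members and complex medians under an alternative, 716 were counted as kept. For a called member this means the same direction and side of the threshold. For a complex median, which has no call, it means a shift smaller than the spread between replicates, whatever its sign. Single members lost the call in 301 cases and changed sign after a call in 0, and complex medians moved by more than that spread in 43. Standard errors in the rTreg genotype comparison ran from 0.0485 to 0.473 with a median of 0.0831, so for a member with few counts a difference the size of the members' median was not detectable.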
